A study of Rattus norvegicus with 6 samples.

Results

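The enzymes that chemically modify drugs and other foreign compounds were examined in the medial prefrontal cortex (mPFC) of rats given LSD or saline. They comprise cytochromes P450 of families 1 to 4 (Cyp), UDP glycosyltransferases (Ugt), cytosolic and kappa glutathione S-transferases (Gst) and sulfotransferases (Sult). They were taken by symbol, from every probe set whose platform annotation holds a single gene symbol entry, of these families. Measured values did not decide which genes of a family entered, but the families were chosen with earlier results of these data known. The rule gave 122 probe sets for 68 genes, of 4736 genes in all. Of these 68 genes, 37 were Cyp, 10 Ugt, 12 Gst and 9 Sult. In each gene the brightest probe set (highest mean over the arrays) stood for it, and 33 of the 68 genes had only 1 probe set.

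Male Sprague-Dawley rats received a single intraperitoneal dose of LSD ((+)-LSD tartrate, 1.0 mg/kg, a hallucinogen that acts at serotonin receptors) or saline, and tissue was taken after 90 min. RNA was read on 3 Affymetrix rat U34 arrays (the A array) per group, named Saline 1 to 3 and LSD 1 to 3. The labels describe tissue of 4 animals pooled per group whereas the study describes pools of a pair of rats, so each p-value reflects variation among arrays alone, some of it possibly technical. Groups follow the titles and treatment labels, since the second line of each sample description names the other treatment. No transgene or deletion is named for these rats, and their age is not given in the sources used here.

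Xenobiotic metabolism runs in 2 steps. Phase 1 enzymes, chiefly P450s, oxidise a compound, and phase 2 enzymes then attach glucuronic acid, glutathione or sulfate so that it can leave the body. The liver is the main site, whereas in brain the same families also handle steroids, fatty acids, neurotransmitters and products of lipid peroxidation, and several are found in astrocytes, oligodendrocytes or vessel walls. The aryl hydrocarbon receptor with its partner Arnt, nuclear receptors and the oxidative stress factor Nrf2 (Nfe2l2) induce many of these genes after exposure.

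The sequences before the starts of 4 genes are shown because these genes carry the patterns described next. The mu-class transferases Gstm1 and Gstm7 had the lowest p-values among the genes with lower signals after LSD, and Cyp2c12 and Ugt2b35 had the highest signals on Saline 1 relative to the other arrays. Sequences are the 250 bases before the start, 5′ to 3′ on the gene's strand, from RefSeq (GRCr8). Gstm1 lies on the minus strand at chr2:198343384-198343633, Gstm7 on the minus strand at chr2:198260320-198260569, Cyp2c12 on the minus strand at chr1:248677035-248677284 and Ugt2b35 on the plus strand at chr14:21208191-21208440. Capitals mark the matches found to 3 motifs searched on both strands, namely the TATA box (TATAAA), the core of the xenobiotic response element bound by the aryl hydrocarbon receptor and Arnt (GCGTG), and the core of the antioxidant response element bound by Nrf2 (TGACNNNGC, which can overlap GCGTG read on the opposite strand).
Gstm1: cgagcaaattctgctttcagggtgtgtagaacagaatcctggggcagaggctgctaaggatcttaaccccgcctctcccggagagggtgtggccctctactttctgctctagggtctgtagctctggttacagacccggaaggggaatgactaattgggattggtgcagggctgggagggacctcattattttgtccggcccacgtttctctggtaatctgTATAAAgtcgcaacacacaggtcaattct
Gstm7: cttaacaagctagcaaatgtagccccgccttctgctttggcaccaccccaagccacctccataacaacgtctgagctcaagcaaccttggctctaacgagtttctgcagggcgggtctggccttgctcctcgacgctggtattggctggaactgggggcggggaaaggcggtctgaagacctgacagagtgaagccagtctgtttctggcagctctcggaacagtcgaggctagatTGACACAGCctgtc
Cyp2c12: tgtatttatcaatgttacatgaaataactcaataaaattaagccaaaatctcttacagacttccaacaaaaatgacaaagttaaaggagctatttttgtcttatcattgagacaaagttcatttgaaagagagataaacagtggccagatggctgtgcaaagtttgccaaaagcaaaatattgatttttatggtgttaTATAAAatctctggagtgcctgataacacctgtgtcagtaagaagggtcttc
Ugt2b35: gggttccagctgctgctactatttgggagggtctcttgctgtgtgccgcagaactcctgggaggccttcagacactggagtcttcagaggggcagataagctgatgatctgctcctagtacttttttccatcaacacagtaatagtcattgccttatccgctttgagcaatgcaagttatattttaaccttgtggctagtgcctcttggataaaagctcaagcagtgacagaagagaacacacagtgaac
Gstm1 and Cyp2c12 hold a TATA box whose first base lies 29 and 52 bases before the start. Gstm7 holds an antioxidant response element core, TGACACAGC, whose first base lies 14 bases before the start, and Ugt2b35 holds none of the 3 motifs in this window. Of the 68 genes, 57 were matched to a promoter by gene ID. The xenobiotic response element core occurred in 10 of them (17.5%), against 28.4% of the promoters of 27457 genes, and the 10 were Cyp1b1, Cyp2b2, Cyp4f1, Cyp4f5, Cyp4f6, Gsta3, Gsta4, Gstm5, Gstp1 and Ugt8. The antioxidant core occurred in 5 (8.77%, against 11%), which were Cyp4b1, Gsta3, Gstm5, Gstm7 and Gstp1. The letters TATAAA occurred, on either strand and anywhere in the window, in 19 (33.3%, against 14.1%), of which 10 were Cyp. Some of these, such as Cyp2d3 and Gsta1, matched only on the opposite strand. A match is only a stretch of letters, not a known binding site.

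Across the 68 genes the LSD and saline arrays were compared to learn whether drug-handling enzymes had responded in cortex within 90 min. No member passed the threshold of 0.05 on the adjusted p (limma, Benjamini-Hochberg over 4736 genes), and the smallest adjusted p was 0.971. Over all genes 1 passed (0.0211%). On the log2 scale 32 members had higher and 36 lower means after LSD, with a median change of -0.0093 against 0.0056 over all genes. An unadjusted p under 0.05 was found in 1 member (1.47%), against 3.63% of all genes, so the members' share was not above the background. The 3 LSD arrays lay wholly above the 3 saline arrays in 2 members, Gstt2 and Ugt2b37 (background 6.97%), and wholly below them in 2, Gstm1 and Gsto1 (background 3.34%). The 95% interval of the change lay within 2-fold in either direction in 64 members and within 1.5-fold in 54. In pooled tissue, fewer cells of a type and less RNA per cell cannot be told apart.

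**Figure D1:**
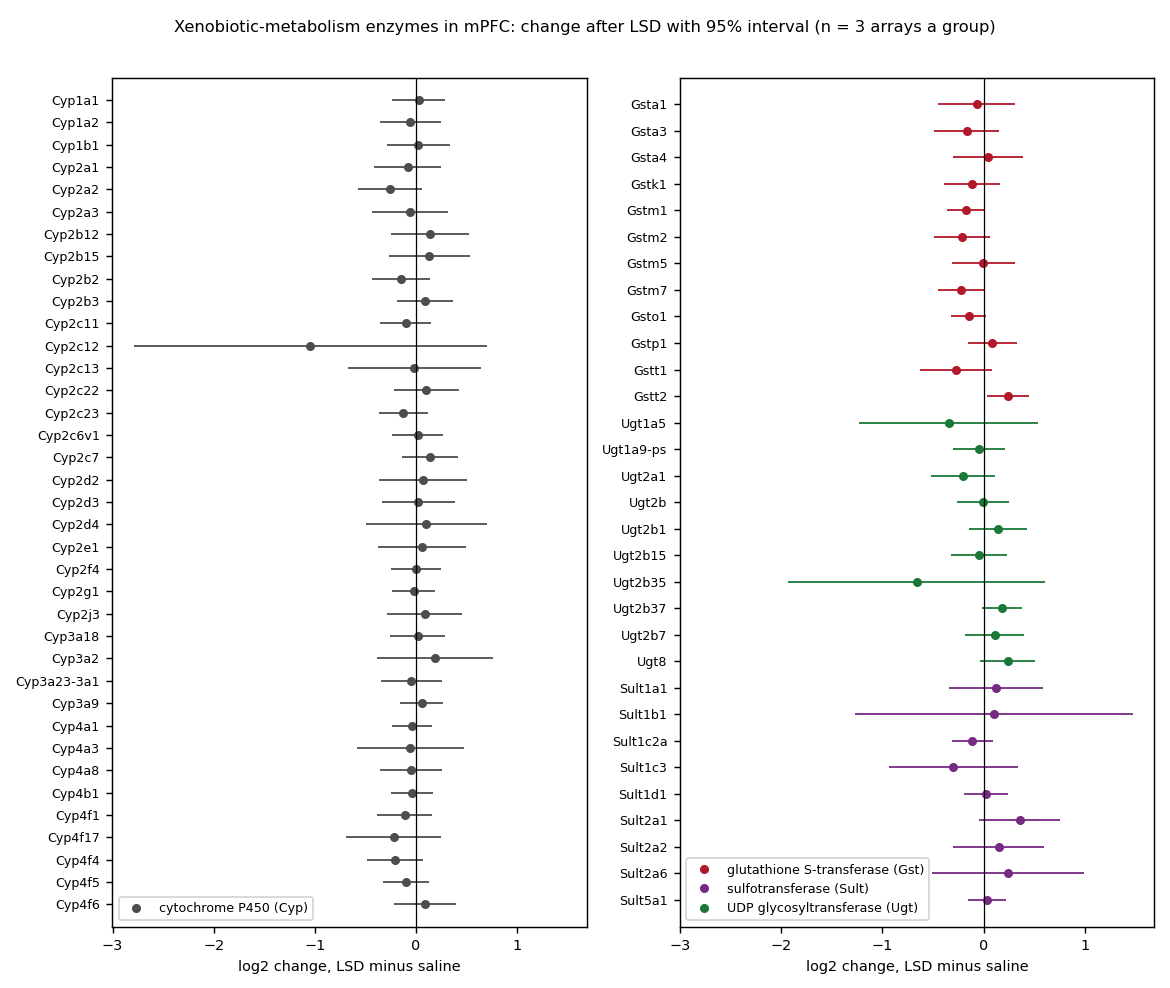
Change of each of the 68 enzyme genes after LSD on the log2 scale (x axis, LSD mean minus saline mean, n = 3 arrays a group), with points for the estimate and lines for the 95% interval of the limma fit, coloured by enzyme class. Only the interval of Gstt2 lies wholly on one side of 0, and the widest interval, of Cyp2c12, runs from -2.79 to 0.70.

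Signals of different probe sets are not comparable as levels, so only the brightness of the probe sets is described. The mean log2 signal of the 4736 genes had a median of 5.77, and 26 of the 68 members reached it. These were 10 of 12 Gst, 10 of 37 Cyp, 3 of 10 Ugt and 3 of 9 Sult. Gst was thus the class with the largest share of members in the brighter part of the array. Most P450 genes, with a median mean signal of 5.08, lay among the dimmer probe sets. No detection calls were used, so a dim signal cannot be told from background.

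Among phase 1 enzymes, 18 of the 37 P450 genes had higher and 19 lower means after LSD, with a median change of -0.015. None had an unadjusted p under 0.05, and in none did the groups fail to overlap. Family 1, the classical targets of the aryl hydrocarbon receptor, had 3 members. Cyp1a1, the most inducible of them in liver, had log2 signals of 4.84, 5.15 and 4.96 on the saline arrays and 5.16, 4.86 and 5.01 on the LSD arrays, a change of 0.03 ± 0.11 (SE). Cyp1a2 and Cyp1b1 changed by -0.05 ± 0.13 and 0.02 ± 0.14. The groups overlapped in all 3 genes, and the upper 95% bound of the log2 change was 0.29 for Cyp1a1, 0.24 for Cyp1a2 and 0.34 for Cyp1b1. These probe sets were dim, with mean signals of 4.99, 4.60 and 5.16, so the bounds may understate a change in RNA. Further probe sets gave 0.08 and -0.09 for Cyp1a2, and 0.12, 0.12 and -0.005 for Cyp1b1. Of the sensors, Ahr, the aryl hydrocarbon receptor itself, had signals of 7.50, 7.41 and 7.43 with saline and 7.36, 7.37 and 7.37 with LSD. Its LSD arrays lay below its saline arrays by a small margin, with a change of -0.07 ± 0.08 and a limma adjusted p of 0.971. Ahr and the 3 family 1 genes fell outside the rule for named genes and were chosen after their values were seen, as were the cell markers and the members named only for a single result.

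Family 2, the largest P450 family, held 21 members, of which 12 had higher and 9 lower means. Cyp2d4, the brightest P450 probe set here and a member of the 2D group that oxidises many psychoactive drugs, had saline signals of 7.20, 8.20 and 8.32 and LSD signals of 7.99, 8.14 and 7.90. Its low value on Saline 1 stood apart from the 5 others. The change was 0.10 ± 0.26, and without Saline 1 it was -0.25 ± 0.10 (limma adjusted p = 0.522). Its other probe set gave -0.17 ± 0.10, with a Saline 1 value of 6.60 inside the saline range. Cyp2a1, a testosterone hydroxylase of liver, had saline signals of 8.13, 7.67 and 7.57 and LSD signals of 7.66, 7.80 and 7.67. Here Saline 1 was the highest array, and the change of -0.08 ± 0.14 became 0.09 ± 0.09 without it. Cyp2a2, another steroid hydroxylase of the male liver, had the lowest p among P450 genes. Its signals were 4.70, 4.25 and 4.34 with saline and 4.21, 4.32 and 3.99 with LSD. The groups overlapped, with a change of -0.26 ± 0.14 and an adjusted p of 0.971. Without Saline 1, the highest of its arrays, the change was -0.12.

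Family 3, the main drug-oxidising P450s of liver and gut, had 4 members, of which 3 were higher and 1 lower. Cyp3a23-3a1 changed by -0.05 ± 0.13, and its 3 other probe sets by 0.18 ± 0.36, 0.04 ± 0.16 and -0.06 ± 0.10, so its probe sets did not share a sign. Family 4, whose enzymes hydroxylate fatty acids and, in the 4F group, inflammatory lipid mediators such as leukotrienes, had 9 members, of which 8 had lower means. Over all genes 48.3% had a negative change. The 9 changes were small, from -0.22 to 0.09, with a median of -0.05. Cyp4f6, the brightest of them, was the member with a higher mean, at 7.53, 8.03 and 7.97 on the saline arrays and 8.0, 7.86 and 7.95 on the LSD arrays. Its change of 0.09 ± 0.13 turned to -0.06 without Saline 1, the array where it was lowest. Without Saline 1 the 2 family members of lowest unadjusted p were Cyp4f4 at -0.33 ± 0.08 and Cyp4f5 at -0.19 ± 0.08, with adjusted p of 0.498 and 0.524.

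Among phase 2 enzymes, Gst had lower means after LSD in 9 of 12 genes, with a median change of -0.13. In its probe sets 19 of 25 were lower, against 48.6% of all probe sets. An unadjusted p under 0.05 was found in 3 (background 3.92%), of Gstm1 and Gsta1, which were lower, and of Gstt2, which was higher. LSD arrays lay wholly below the saline arrays in 5 (background 3.79%) and wholly above in 1 (background 6.58%). No Gst gene or probe set passed the adjusted threshold, and the smallest adjusted p of its probe sets was 0.943 (over all 122 member probe sets 0 passed, against 0.0686% of all probe sets). The 25 probe sets are not independent, since several read the same gene, and transferases of a class are close in sequence. The count of 9 lower genes lay between 7 and 9 when any single array was left out.

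The mu class, which conjugates glutathione to reactive electrophiles and whose genes lie in 1 cluster on chromosome 2, had 4 of 4 genes lower, though Gstm5 only by -0.002. Gstm1, which in brain is mainly an astrocyte enzyme, had log2 signals of 9.02, 8.99 and 8.86 on the saline arrays and 8.75, 8.77 and 8.82 on the LSD arrays. All 3 LSD arrays lay below all 3 saline arrays. The change was -0.18 ± 0.08, with a limma unadjusted p of 0.062 and an adjusted p of 0.971. A further probe set of Gstm1 gave 8.43, 8.42 and 8.46 with saline against 8.20, 8.11 and 8.18 with LSD. This was the member probe set of lowest p, at -0.27 ± 0.08, with a limma unadjusted p of 0.0079 and an adjusted p of 0.943. The remaining probe set of Gstm1 gave -0.19 ± 0.16 with overlapping groups.

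Gstm7 had signals of 8.54, 8.82 and 8.84 with saline and 8.48, 8.51 and 8.55 with LSD. The groups overlapped only because LSD 3 lay just above Saline 1. The change was -0.22 ± 0.10 (limma unadjusted p = 0.058), and without Saline 1 it was -0.31 ± 0.08, the lowest unadjusted p of all members in that fit (0.0045), with an adjusted p of 0.498. Gstm2 changed by -0.21 ± 0.12 and Gstm5 by -0.0020 ± 0.14, in both cases with overlapping groups. Without Saline 1, the highest array of both, Gstm2 changed by -0.09 and Gstm5 by 0.12 ± 0.12. The other probe sets gave -0.16 ± 0.23 for Gstm2 and 0.04 ± 0.10 for Gstm5, so the sign of Gstm5 was not stable.

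Outside the mu class, Gsto1, an omega transferase that reduces dehydroascorbate, had signals of 8.37, 8.43 and 8.44 with saline and 8.31, 8.24 and 8.24 with LSD. Its LSD arrays lay below its saline arrays, with a change of -0.15 ± 0.08 and an adjusted p of 0.971, and its other probe set gave -0.11 ± 0.09 with overlap. Gstk1, the kappa transferase of mitochondria and peroxisomes, changed by -0.11 ± 0.12, whereas its other probe set gave 0.18 ± 0.21. Its change was -0.011 without Saline 2 and -0.21 without Saline 1. In the alpha class the probe set standing for Gsta1 gave -0.07 ± 0.17, and its 2 other probe sets gave -0.21 ± 0.11 and -0.19 ± 0.08, both with LSD arrays wholly below. Gsta3 changed by -0.17 and Gsta4 by 0.04, with overlapping groups. Further probe sets gave 0.02 and -0.14 for Gsta3 and -0.24 ± 0.17 for Gsta4. Without Saline 1 Gsta3 changed by -0.32 and Gsta4 by -0.13, so the sign of Gsta4 turned. Gstp1, the pi transferase that marks oligodendrocytes in brain, went the other way, at 8.88, 8.79 and 8.61 with saline and 8.77, 8.99 and 8.78 with LSD. Its change was 0.09 ± 0.10, and -0.0079 ± 0.087 in its other probe set.

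Gstt2, a theta transferase, was the only member with an unadjusted p under 0.05. Its signals were 6.0, 5.83 and 6.10 with saline and 6.21, 6.21 and 6.25 with LSD, so that all LSD arrays were higher. The change was 0.24 ± 0.09, or 1.18-fold, with a limma unadjusted p of 0.027 and an adjusted p of 0.971. Its other probe set gave 5.58, 5.19 and 5.23 against 5.26, 5.48 and 5.17, a change of -0.03 ± 0.13. The higher signal of 1 probe set was therefore not seen with the other. Gstt1, the other theta gene, changed by -0.27 ± 0.16.

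**Figure D2:**
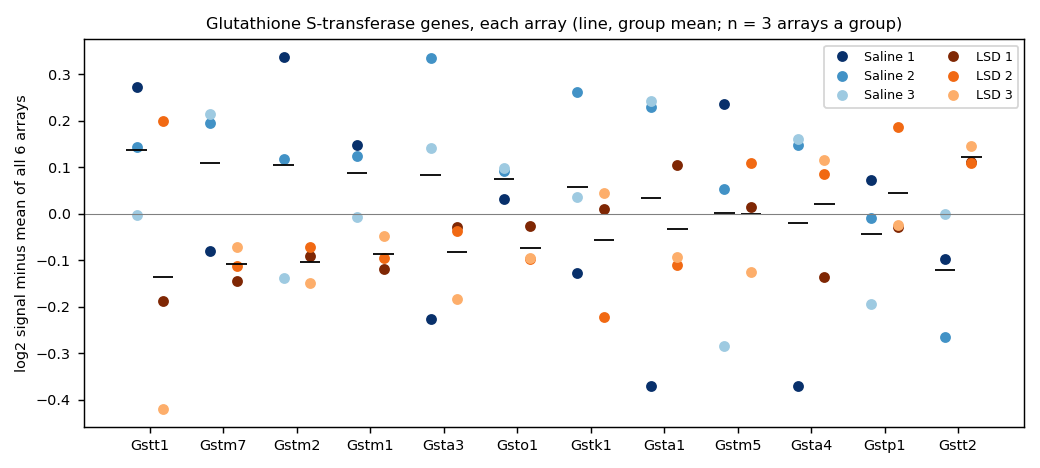
The 12 glutathione S-transferase genes ordered by their change after LSD (x axis), with the log2 signal of each array minus the mean of all 6 arrays (y axis). Points are arrays (blue, saline; orange and brown, LSD), short lines are group means. In Gstm1 and Gsto1 all LSD points lie below all saline points, in Gstt2 all lie above, and in the other 9 genes the groups overlap.

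Markers of cell types moved to different degrees on the same arrays. Of 12 astrocyte markers measured, 5 had higher and 7 lower means after LSD, 0 passed the adjusted threshold and 4 had an unadjusted p under 0.05 (all genes 3.63%), namely Cst3 (-0.27 ± 0.08), S100b (-0.24 ± 0.10) and Slc1a3 (-0.25 ± 0.10), which were lower, and Aqp4 (0.41 ± 0.13), which was higher. Their summed linear signal was 19200 to 19800 on the saline arrays and 17900 to 19600 on the LSD arrays. Of 7 oligodendrocyte markers, which include Ugt8, 0 had an unadjusted p under 0.05, and their sum was 3830 to 4630 with saline and 4230 to 4370 with LSD. These sums overlapped, as did those of endothelial and mural, microglia and inhibitory neuron markers. Those of choroid plexus and meninges, of excitatory neurons and of hepatocytes (given further below) did not. For 13 genes of choroid plexus and meninges the sum was 2310 to 2470 with saline and 1900 to 2010 with LSD. Of the 13, 5 had higher and 8 lower means (median change -0.037). An unadjusted p under 0.05 was found in 3, namely Ttr, Enpp2 and Igf2, all with lower means. A linear sum leans on its brightest genes, and Ttr is in both this list and that of hepatocytes. For 7 excitatory neuron markers the sum was 3850 to 3930 with saline and 4070 to 4200 with LSD. Of the 7, 4 had higher and 3 lower means (median change 0.015), with 1 unadjusted p under 0.05, that of Syt1, which was higher with LSD. The difference between 3′ and 5′ control probe sets of beta-actin, a sign of RNA or labelling quality, was 0.84, 0.75 and 0.78 log2 units on the saline arrays and 0.71, 0.71 and 0.64 on the LSD arrays, without overlap, whereas that of Gapdh overlapped. The part of cell makeup and of this 3′ to 5′ difference in the lower Gst signals was not tested.

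Ugt enzymes, which attach a sugar, divided into 4 genes with higher and 6 with lower means (median change -0.03). Ugt8 is the ceramide galactosyltransferase that makes the galactolipids of myelin, and is an oligodendrocyte gene rather than a drug enzyme. It had signals of 7.03, 6.62 and 6.93 with saline and 7.01, 7.17 and 7.11 with LSD. The groups overlapped by a narrow margin between LSD 1 and Saline 1, and the change was 0.24 ± 0.12 with an adjusted p of 0.971. Without Saline 2, its lowest array, the change was 0.12, and without Saline 1 it was 0.32. Its other probe set gave 0.17 ± 0.13. Ugt2b37, a steroid-conjugating form, had signals of 3.93, 4.04 and 4.01 with saline and 4.29, 4.14 and 4.08 with LSD. All LSD arrays were higher, by 0.18 ± 0.09, at a dim probe set and with an adjusted p of 0.971. The brightest member of this class, the gene annotated Ugt2b, changed by -0.0036 ± 0.11, with overlapping groups.

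Sult enzymes, which attach sulfate to phenols and steroids, had 7 of 9 genes with higher means and a median change of 0.10, which is opposite in sign to that of Gst. None had an unadjusted p under 0.05. The hydroxysteroid group Sult2 had 3 of 3 genes higher. Sult2a1, which sulfates bile acids and dehydroepiandrosterone, had signals of 4.28, 4.22 and 3.91 with saline and 4.83, 4.51 and 4.14 with LSD. The groups overlapped, with a change of 0.36 ± 0.17 and an adjusted p of 0.971, and its 3 other probe sets gave 0.08 ± 0.10, -0.12 ± 0.13 and -0.11 ± 0.14. Sult2a6 changed by 0.24 ± 0.33, but its other probe sets gave -0.09 and -0.02. Sult2a2 changed by 0.15 ± 0.20, but its other probe sets gave -0.19 and -0.0003. At the probe set level the class was even, with 9 higher and 9 lower. Sult1a1, the phenol sulfotransferase, changed by 0.12 ± 0.20, and by -0.14 ± 0.09 without Saline 1, where it was lowest at 5.21 against 5.75 to 6.03 on the others. Sult5a1 had signals of 7.65, 7.65 and 7.55 with saline and 7.64, 7.57 and 7.72 with LSD, and was among the least variable members, with a change of 0.03 ± 0.08.

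A further 32 probe sets hold several symbol entries, of which at least 1 is of these families, and were not counted as members. In 2 of them both entries are Sult1e1, the estrogen sulfotransferase, under different gene IDs, so this gene is not among the 68. Its probe sets gave -0.03 ± 0.17 and 0.12 ± 0.15, with overlapping groups. Many of the others read the shared exons of the Ugt1a locus or close pairs such as Cyp2b1 and Cyp2b2. Of the 32, 16 were higher and 16 lower after LSD, 0 passed the adjusted threshold and 1 had an unadjusted p under 0.05 (all probe sets 3.92%), so the count was at the background. LSD arrays lay wholly above in 1 (6.58%) and wholly below in 1 (3.79%). The 1 with an unadjusted p under 0.05 was a probe set for Sult2a1 or Sult2a6, with signals of 4.17, 4.02 and 4.04 on the saline arrays and 5.0, 4.80 and 4.23 on the LSD arrays. All LSD arrays were higher, by 0.61 on the log2 scale (limma unadjusted p = 0.010, adjusted p = 0.981). Another probe set for the same pair had LSD arrays wholly below the saline arrays, by 0.13, so the probe sets of this pair disagreed.

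Saline 1 differed from the other 5 arrays in these genes more than any other array did. In the 68 members its median absolute distance from the mean of the other 5 arrays was 0.26 log2 units, against 0.12 over all genes. For the other arrays the members' median ranged from 0.11 to 0.16, against 0.079 to 0.12 over all genes. The members' median was thus above that of all genes on every array. Over all genes LSD 1 (0.121) was close to Saline 1 (0.122). In 5 members Saline 1 was over 1 log2 unit above the other arrays (all genes 0.528%), and in 0 it was as far below (all genes 0.0845%). At 0.5 log2 units it was above in 7 members (all genes 2.7%) and below in 6 (all genes 1.54%). It was the highest of the 6 arrays in 22 members (32.4%, against 19.9% of all genes) and the lowest in 24 (35.3%, against 25.3%), so the distance ran in both directions. These values describe 1 array, without a test, in genes chosen with earlier results of these data known. Correlations between arrays over all genes ran from 0.986 (Saline 1 with LSD 1) to 0.996.

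**Figure D3:**
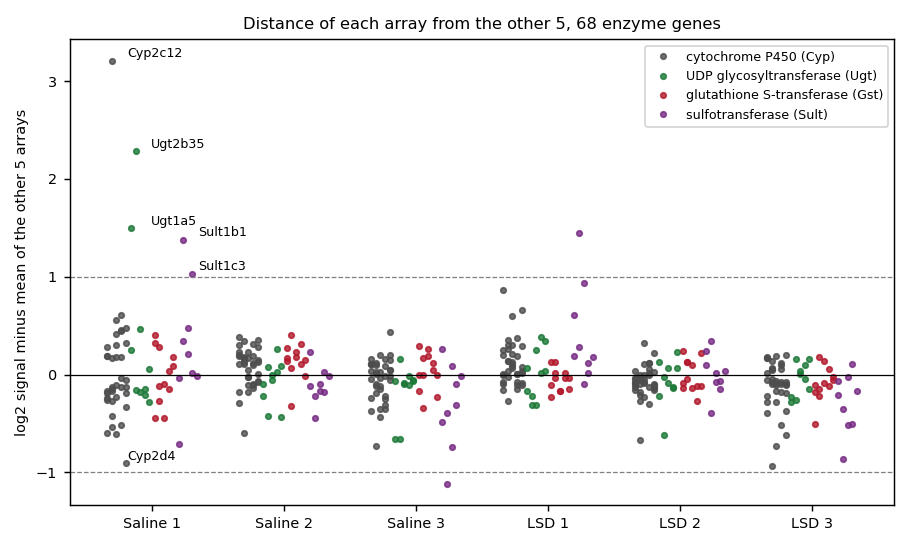
Log2 signal of each array minus the mean of the other 5 arrays (y axis) for the 68 enzyme genes, with 1 point per gene and array, coloured by enzyme class; dashed lines mark 1 log2 unit. Saline 1 holds 5 points above the upper line, LSD 1 holds 1, and Saline 3 holds 1 below the lower line.

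The 5 genes came from 3 classes. Cyp2c12, the steroid sulfate hydroxylase known as the female-specific P450 of rat liver, read 5.98 on Saline 1 and between 2.52 and 3.08 on the other arrays, a difference of 3.21. The other 5 arrays lay near the lowest value of the data (2.11), where signal cannot be told from background, so no fold is given. Ugt2b35, a glucuronosyltransferase, read 8.0 on Saline 1 and 5.55 to 5.88 on the others, a difference of 2.28 or 4.86-fold. Ugt1a5, a form of the Ugt1a locus, read 5.25 against 3.46 to 3.87, a difference of 1.49. Sult1c3 read 4.49 against 3.22 to 3.73, a difference of 1.03. In these 4 genes every other array, saline or LSD, lay below Saline 1, and the other arrays of both groups overlapped. Sult1b1, which sulfates thyroid hormones and small phenols, was different. It read 5.15 on Saline 1 and 5.20 on LSD 1, against 3.62 and 3.07 on the other saline arrays and 3.67 and 3.27 on the other LSD arrays. The same gene was thus high on 1 array of each group, and both arrays carry the number 1 in their titles.

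Other probe sets of the same genes bore on this unevenly. The second probe set of Cyp2c12 read 3.44 on Saline 1 and 2.95 to 3.33 on the others, and that of Ugt2b35 read 2.66 on Saline 1, inside the range of the others. The second probe set of Sult1c3, by contrast, read 4.24 against 2.99 to 3.51. Of the 13 members over 0.5 log2 units from the others on Saline 1, 8 had further probe sets, 10 in all. Of these 10, 6 shared the sign and 2 were over 0.5 in the same direction. At the probe set level 7 of 122 were over 1 log2 unit above on Saline 1 (all probe sets 0.812%) and 0 as far below (0.0801%), and at 0.5 log2 units 14 were above (3.24%) and 8 below (1.83%). Of the 7, the 2 not already named read Ugt2b (4.93 against 3.61 to 3.74) and Cyp2e1, the ethanol-oxidising P450 (4.80 against 3.51 to 3.99). The other probe sets of both genes did not share this. On Saline 1 those of Ugt2b lay at -0.15 and -0.24 from the other arrays, and those of Cyp2e1 at -0.60, in the probe set standing for the gene, and -0.0038. The probe set shared by Gsta5 and Gsta2 also stood out, at 6.31 against 3.85 to 4.24.

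**Figure D4:**
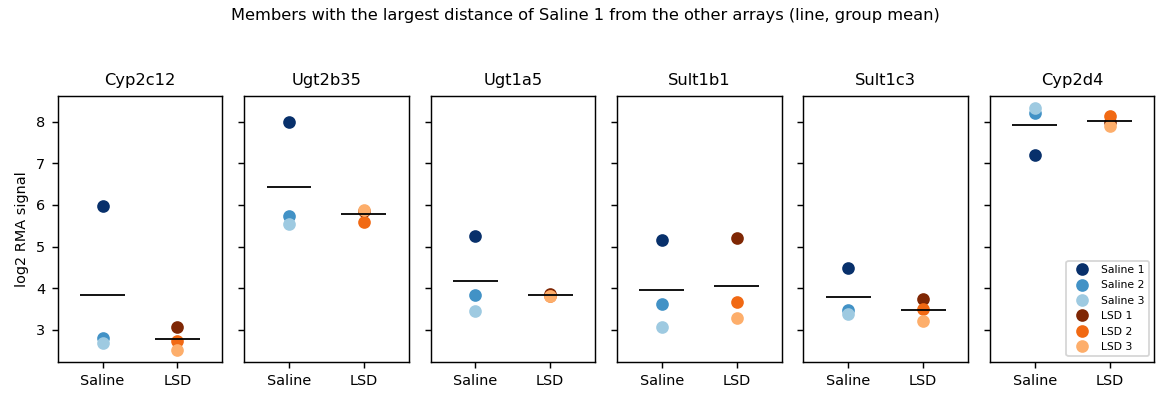
Log2 RMA signal on each array (y axis) for the 6 members with the largest distance of Saline 1 from the other arrays, by group (x axis); points are arrays and lines are group means of 3 arrays. Saline 1 is the highest array in Cyp2c12, Ugt2b35, Ugt1a5 and Sult1c3 and the lowest in Cyp2d4, whereas in Sult1b1 both Saline 1 and LSD 1 lie above the rest.

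The change after LSD of these genes rested on Saline 1. With all arrays Cyp2c12 changed by -1.05 ± 0.76, and without Saline 1 by 0.03 ± 0.16. Ugt2b35 went from -0.66 ± 0.56 to 0.12 ± 0.12, Ugt1a5 from -0.34 ± 0.39 to 0.19 ± 0.12, and Sult1c3 from -0.30 ± 0.28 to 0.05 ± 0.15. In all 4 genes the sign turned. Sult1b1 changed by 0.10 ± 0.60 with all arrays, by 0.70 without Saline 1 and by -0.47 without LSD 1. None of the 5 had an adjusted p under 0.971 with all arrays.

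Over the 68 genes, leaving out Saline 1 gave 29 members with higher and 39 with lower means after LSD, a median change of -0.04, and again 0 past the adjusted threshold (smallest adjusted p 0.498; 0% of all genes passed). Members with an unadjusted p under 0.05 went from 1 to 8, of which 2 were higher, while the share of all genes rose to 9.31%. The groups then failed to overlap in 14 members. The 4 with higher LSD arrays (background 14.7%) were Cyp2d3, Gstt2, Ugt2b37 and Ugt8. The 10 with lower LSD arrays (background 14.1%) were Cyp2d4, Cyp4f4, Cyp4f5, Gsta1, Gsta3, Gsta4, Gstm1, Gstm7, Gsto1 and Sult1a1, of which 6 were Gst.

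LSD 1 also stood somewhat apart. It was the highest array in 18 members (26.5%, against 19.2% of all genes), over 0.5 log2 units above the others in 6 (all genes 1.96%) and over 1 above in 1, Sult1b1 (all genes 0.211%). Of the members over 0.5 above the others, 2 were so on both Saline 1 and LSD 1. One was Sult1b1 and the other Cyp2c13, a male-specific P450 of rat liver, which read 5.20 on Saline 1 and 5.23 on LSD 1 against 4.12 to 4.82 on the rest. Without LSD 1, Sult2a6 turned from 0.24 to -0.09.

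Liver markers were read on the same arrays, because many members are best known from liver. Of 22 hepatocyte markers, 0 lay over 1 log2 unit above the other arrays on Saline 1, and their median distance was 0.03. They lay on both sides, as with Apoa1 at 0.26 and Fga at -0.38. Albumin (Alb) read 6.15 on Saline 1, 6.14 and 6.07 on the other saline arrays and 5.82, 6.01 and 6.0 on the LSD arrays. The summed linear signal of the 22 was 1980 to 2180 on the saline arrays, highest on Saline 1, and 1630 to 1660 on the LSD arrays, with Ttr, which the choroid plexus also makes, as the brightest of them. Of the 22, 7 had higher and 15 lower means after LSD. Ttr itself had a change of -0.49 ± 0.09 (limma adjusted p = 0.319), which did not pass. Among 26 tissue-restricted genes of organs other than brain, 0 were over 1 log2 unit above on Saline 1. Neuronal markers of the labelled tissue were present, with Snap25 at 10.6 to 10.8 on all arrays. Over all genes Saline 1 was over 1 log2 unit above the others in 25, the 5 members among them. The 25 also held Cat (2.90), Abcc2 (1.93), Acadl (1.31), Dpyd (1.19) and Arg1 (1.14), which are abundant in liver, are outside the hepatocyte list and were chosen after their distances were seen. The rest of the 25, such as Clcn5 (1.16), were not sorted by organ, so no share of liver genes can be read from these. The part of tissue makeup or of array quality in this was not tested.

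The rest of the pathway was read from 5 lists of genes. Of 26 other phase 1 enzymes, 14 had higher and 12 lower means after LSD, with 0 past either the adjusted or the unadjusted threshold. The 2 of lowest p were Ephx2, soluble epoxide hydrolase (-0.20 ± 0.11), and Ces1c, a carboxylesterase (-0.31 ± 0.17). Of 12 other phase 2 enzymes 5 were higher and 7 lower, with 0 past either threshold. The 2 of lowest p were Mgst2, a microsomal glutathione S-transferase (0.20 ± 0.11), and Papss1, which makes the sulfate donor of the Sult enzymes (-0.13 ± 0.10).

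Of 16 genes of glutathione synthesis and redox defence, 9 were higher and 7 lower, with 0 past the adjusted threshold and 1 with an unadjusted p under 0.05 (all genes 3.63%). That gene was Sod2, mitochondrial superoxide dismutase, at 5.98, 5.56 and 5.26 with saline and 6.21, 6.07 and 6.94 with LSD. All LSD arrays were higher (all genes 6.97%), by 0.80 ± 0.25, with a limma unadjusted p of 0.011 and an adjusted p of 0.971. Gsr, glutathione reductase, was next, at -0.14 ± 0.08. In this list Cat, catalase, stood out on Saline 1, at 6.93 against 3.27 to 4.87, as did the efflux transporter Abcc2 in the transporter list, at 6.68 against 4.43 to 5.42. Both were named after their values were seen.

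Of 16 xenobiotic sensors and their partners, 8 were higher and 8 lower, with 0 past either threshold. The 2 of lowest p were Cebpa, a liver-enriched activator (0.17 ± 0.10), and the retinoid receptor Rxrg (-0.13 ± 0.09). Of 20 drug efflux and uptake transporters, 7 were higher and 13 lower, with 0 past either threshold, and the 2 of lowest p were Abcc8, a potassium channel subunit of the transporter family (0.22 ± 0.10), and the organic anion carrier Slco1a5 (-0.42 ± 0.22, with Saline 1 as its highest array at 3.70 against 2.50 to 2.98). Median changes of the 5 lists lay between -0.05 and 0.04, against 0.0056 over all genes.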

How the data were processed

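The authors normalised the raw arrays by RMA (R package affy) and deposited log2 RMA values (background correction, quantile normalisation, median polish); its version is not given in the sources used here. RMA compresses the differences of dim probe sets and yields no detection call, and no depth exists, so the number of arrays (3 per group) limits the precision. Medians of the 6 arrays lay between 5.43 and 5.45.

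Without the 59 controls, 8740 probe sets entered the tests, of which 7006 had 1 gene symbol entry, 308 several and 1426 none in the platform annotation. The brightest probe set stood for each of 4736 genes, without a filter on low values, so all 68 members were tested. Groups were compared with limma 3.58.1 (R 4.3.3; lmFit and eBayes, two-sided), with Benjamini-Hochberg adjustment over all genes, or over all probe sets for values of further probe sets, a threshold of 0.05 and 95% intervals. The distance of an array was its value minus the mean of the other 5 arrays. The fit was tested on simulated data.

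Named genes were the 4 brightest of each class, the 4 of lowest p in each direction, the 6 farthest from the other arrays on Saline 1 and the 2 of lowest p of each pathway list. Members and lists were chosen with earlier results of these data known. Alternatives changed the choice of probe set, the normalisation, a filter on dim probe sets, the model and the arrays used. Promoters came from RefSeq, with the 50 bases after each start left out. The 11 members without an entry were Cyp1a1, Cyp2a2, Cyp2c6v1, Cyp4a1, Cyp4f17, Cyp4f4, Gstt1, Gstt2, Ugt1a5, Ugt1a9-ps and Ugt2a1.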

Additional observations from a re-analysis of the deposited data

How the results depend on the processing

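With 3 arrays per group the exact Wilcoxon test cannot go below p = 0.1, so its count of 0 says nothing about stability. No member passed the adjusted threshold under any of the 17 alternatives, and the members' median change stayed between -0.061 and 0.027 (leave-one-out -0.057 to 0.027).

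Over all genes the count past the threshold was 1, and became 4 with the mean of the probe sets, 4 among genes at or above the median level, 6 with an intensity trend and robust prior, 5 with array weights, 6 at the probe set level, and 0 after repeated quantile normalisation, after cyclic loess and with the Wilcoxon test. It was 0 to 0 when any array was left out, Saline 1 included, and unchanged with the most variable probe set and with equal medians. The genes with an unadjusted p under 0.05 (limma) numbered 133 to 441 over the leave-one-out fits, against 172. With the replicate number as a block the count past the threshold was 0. The deviations of same-numbered arrays correlated at -0.024, -0.23 and 0.15. These values cannot settle whether same-numbered arrays shared a batch or a pairing, and the labels give only the number.

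Members over 1 log2 unit from the other arrays on Saline 1 numbered 5, 1 among members at or above the median level and 13 at 0.5 log2 units. Added after seeing the data, members with an unadjusted p under 0.05 numbered 0 to 12 (12 with array weights, 8 without Saline 1), and those without overlap 1 to 14.

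For named members the sign turned in 31 fits and stayed in 369, and the cause was not tested. Part of the 369 was fixed in advance, so the count is no measure of stability. The intensity trend with robust prior, the replicate block and the Wilcoxon test leave a gene's change as it was. So do the probe set level and the filter on dim probe sets. With the most variable probe set Cyp3a23-3a1 and Gstk1 gave 0.18 and 0.18 and Gstt2 -0.028. With the mean of the probe sets Cyp2d4 gave -0.035, Cyp3a23-3a1 0.028, Gstk1 0.035 and Sult2a2 -0.014. With array weights Cyp2d4 gave -0.11, Cyp4f6 -0.057, Cyp2a1 0.10, Sult1a1 -0.081 and Ugt1a5 0.079. Leaving out 1 array gave -0.25 to 0.31 for Cyp2d4, -0.064 to 0.18 for Cyp4f6, -0.19 to 0.091 for Cyp2a1, -0.17 to 0.053 for Cyp3a23-3a1, -0.068 to 0.10 for Ugt2b, -1.10 to 0.12 for Ugt2b35, -0.14 to 0.26 for Sult1a1, -1.61 to 0.031 for Cyp2c12, -0.70 to 0.19 for Ugt1a5, -0.50 to 0.053 for Sult1c3, -0.47 to 0.70 for Sult1b1, -0.0072 to 0.066 for Sult5a1 and -0.089 to 0.52 for Sult2a6. Without turning the sign, it moved the value by over 1.5 times for Gstk1 (-0.21 to -0.011), Ugt8 (0.12 to 0.32), Gstp1 (0.013 to 0.15), Sult2a2 (0.021 to 0.33), Sult2a1 (0.19 to 0.53) and Cyp2a2 (-0.35 to -0.12).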

Other observations

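P450 genes outside families 1 to 4, which mainly make or clear steroids, retinoids and vitamin D, were measured for 12 genes. After LSD 5 had higher and 7 lower means, 0 passed the adjusted threshold (limma, smallest adjusted p 0.971) and 0 had an unadjusted p under 0.05. The median change was -0.047. The LSD arrays lay wholly above the saline arrays in 1 of them (all genes 6.97%), Cyp26b1, which clears retinoic acid, with a change of 0.15. Single arrays stood apart here too. Cyp27b1, which activates vitamin D, read 5.54 on Saline 1 and 4.40 to 4.79 on the other arrays. Cyp11b2, aldosterone synthase, read 5.42 on LSD 1 and 4.17 to 4.45 on the others. These 3 genes were chosen after their values were seen.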
